A study of Mus musculus with 16 samples.

Results

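The 43 genes described here encode the machinery that copies DNA in S phase of the cell cycle. They were taken as a list of gene symbols, and all 43 were found among the 19938 genes of the array platform that had a probe set with a single gene symbol. Pcna and Tk1 have more than 1 probe set, and the brightest on average is reported for them. RNA was taken from mouse CD8 T cell clones, 1 of each kind, so a difference between the clones is a difference between these cell lines. The unconventional clone is labelled as resistant to cyclosporine and the conventional clone as sensitive to it. There were 4 groups of 4 arrays each: unconventional cells activated through CD3 in the presence of cyclosporine A (CSA, 1 ug/ml), unconventional cells activated through CD3 alone, conventional cells activated with CSA, and conventional cells activated through CD3 alone. All 4 groups were stimulated with the immobilized antibody 145-2c11, which binds the CD3 part of the T cell receptor, in medium to which no recombinant cytokine had been added, after growth in a mixture of IL-1a, IL-6, IL-7, IL-15, TNF-alpha and interferons. Unstimulated cells were not analysed here, so each value is a level in activated cells or a difference between activated cells.

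Before S phase, the origin recognition complex, Cdc6 and Cdt1 load the Mcm2 to Mcm7 helicase onto origins, a step called licensing that geminin (Gmnn) holds back. Cdc45, the GINS complex and Mcm10 then turn the loaded helicase into an active one, and the polymerases, primase, the sliding clamp Pcna and its loader RFC follow it along the template. Many of these genes are transcribed together by E2F factors when a resting T cell, triggered through its receptor and by cytokines, enters the cycle. CSA, bound to cyclophilin, inhibits the phosphatase calcineurin, which activates NFAT factors downstream of the T cell receptor, and it is known for blocking IL-2 production and proliferation of T cells.

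The values are log2 expression values as deposited, so a difference of 1 is a 2-fold change. Across the 16 arrays the median over all genes lay between 5.36 and 5.55, and arrays of a group correlated at 0.9947 to 0.998. The labels do not state that the replicates are separate cultures, and the p-values therefore describe the spread among these samples, which may be technical only. The T cell markers Cd3e, Cd3d and Cd3g were high in every group, and the Cd8b1 chain averaged 10.26 in unconventional cells with CSA, 10.24 in unconventional cells with anti-CD3 alone, and 12.31 in both conventional groups. The Cd8a chain averaged 8.56 in unconventional cells with CSA, 10.31 in unconventional cells with anti-CD3 alone, 11.92 in conventional cells with CSA and 12.5 in conventional cells with anti-CD3 alone. The T cell markers Cd2 and Cd5 were low in every group, at means of 3.99 to 4.25 and 4.83 to 5.12. Of 8 measured B cell markers, 7 averaged at most 5.5 in every group, and Ebf1 averaged 4.93 in conventional cells with CSA against 7.8 in conventional cells with anti-CD3 alone. The summed level of the B cell list was 32.4 to 33 in unconventional cells with CSA, 32.72 to 33.45 in unconventional cells with anti-CD3 alone, 32.7 to 34.33 in conventional cells with CSA and 36.5 to 36.98 in conventional cells with anti-CD3 alone. Among 12 epithelial and fibroblast markers, Cdh1 stood at 9.22 in unconventional cells with CSA, 7.12 in unconventional cells with anti-CD3 alone, 5.05 in conventional cells with CSA and 5.03 in conventional cells with anti-CD3 alone. The other markers of that list averaged at most 6.68 in each group, and the list median was 4.87 in both unconventional groups and 4.89 in both conventional groups. The 15 macrophage and dendritic cell markers averaged at most 5.01 in each group, the 3 CD4 T cell markers at most 4.91 and the 8 measured erythroid and granulocyte markers at most 5.02. The part of these markers in the results below was not tested.

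The replication genes as a group were set apart on every array. Their median level on an array was 9.35 to 9.68 in unconventional cells with CSA and 9.91 to 10.19 in unconventional cells with anti-CD3 alone. In conventional cells it was 7.27 to 7.57 with CSA and 8.54 to 8.65 with anti-CD3 alone. The ranges of the 4 groups do not overlap, and the unconventional clone stood higher with CSA than the conventional clone did without it. The RNA is of whole cultures, so fewer cells in S phase and less RNA per cell cannot be told apart.

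**Figure D1:**
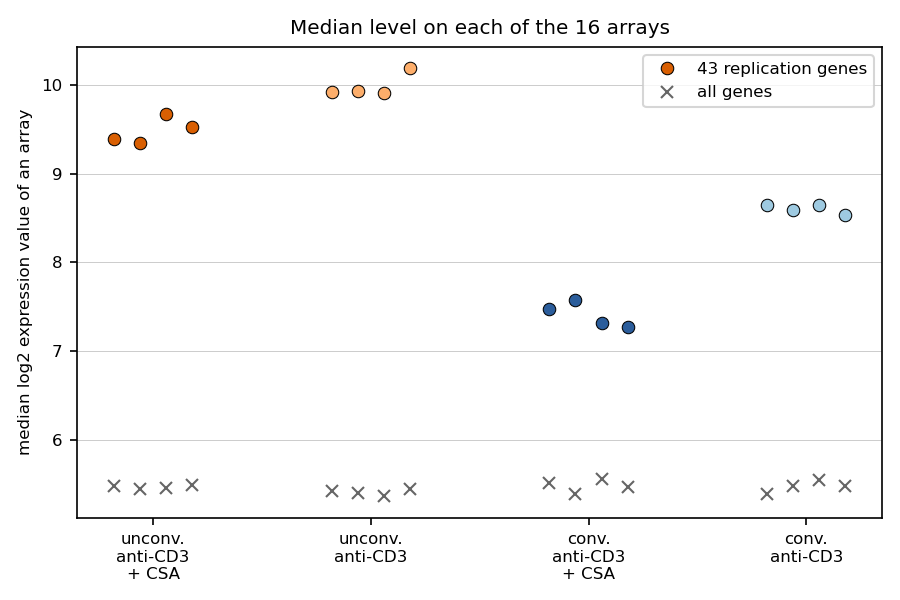
Median log2 expression value on each of the 16 arrays, for the 43 replication genes (circles) and for all genes (crosses), by group. The replication genes lie at 9.35 to 9.68 and 9.91 to 10.19 in unconventional cells with CSA and with anti-CD3 alone, and at 7.27 to 7.57 and 8.54 to 8.65 in conventional cells with CSA and with anti-CD3 alone, while all genes stay between 5.36 and 5.55.

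Promoter sequence was examined because the members moved together. RefSeq windows on GRCm38.p6, each from 250 bases before to 50 bases after a transcript start, were found for 35 of the 43 genes. The letters TTTCCCGC, TTTGGCGC, TTTCGCGC or TTTGCCGC, which are forms of the E2F binding motif, were searched on both strands and occurred in 15 of the 35 genes (42.9%), against 2.6% of 27025 genes with such a window. CCAAT, the letters bound by NF-Y, occurred on either strand in 24 of the 35 genes (68.6%), against 41.1% of all genes with a window. The genes behind these shares were not matched to the members in base composition, and its part in the gap was not tested. A match is a description of letters, not a site of binding. For several members, Cdc6 and Uhrf1 among them, the window belongs to a later transcript start and lies inside the annotated gene. The stretches below are those of Mcm5, Mcm6 and Gins3, the 3 members whose matches all lie upstream of the annotated gene start. They show the letters beside falls with CSA in the conventional clone of 1.65 for Mcm5 and 1.25 for Mcm6, and beside a change of -0.01 for Gins3 that was not called. Capitals mark the E2F letters, 5′ to 3′ on the gene's strand. Mcm5 is at chr8:75109331-75109392 (plus strand), Mcm6 at chr1:128359720-128359840 (minus strand) and Gins3 at chr8:95633493-95633550 (plus strand).
Mcm5: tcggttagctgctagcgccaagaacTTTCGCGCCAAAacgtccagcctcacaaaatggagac
Mcm6: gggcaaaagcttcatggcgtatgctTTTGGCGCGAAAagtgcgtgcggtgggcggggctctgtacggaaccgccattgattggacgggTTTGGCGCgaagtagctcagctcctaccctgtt
Gins3: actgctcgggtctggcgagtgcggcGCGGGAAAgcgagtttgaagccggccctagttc

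In Mcm5 and in the first run of Mcm6, 2 matches of opposite strands overlap in a single palindrome-like run. Counted with the transcript start as base 1 and the base before it as -1, the runs start at -153 in Mcm5, -110 and -47 in Mcm6, and -41 in Gins3. Among the members with these letters the median log2 change with CSA was -0.52 in the unconventional clone and -1.65 in the conventional clone. Among the 20 members whose window lacks them it was -0.525 in the unconventional clone and -1.34 in the conventional clone. A fall of at least 2-fold in the conventional clone was seen in 12 of 15 members with the letters and in 13 of 20 without them.

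In the conventional clone, CSA lowered nearly the whole replication machinery. Of the 43 genes, 40 fell and 2 rose at an adjusted p under 0.05. Of all 19938 genes, 31.4% were called, 15.5% as lower and 15.9% as higher. By at least 2-fold, 28 of the 43 fell, against 2.69% of all genes. The median gene stood at 37.4% of its level with anti-CD3 alone, a log2 change of -1.42, while the median over all genes was 0.02. For 42 of the 43 the arrays of the 2 groups did not overlap, against 30.5% of all genes.

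Among the licensing genes of the conventional clone, all 12 fell, 10 of them by at least 2-fold, with a median of -1.56. Mcm7, a subunit of the replicative helicase, had values of 6.55, 6.68, 6.43 and 6.77 with CSA, against 9.44, 9.53, 9.75 and 9.4 with anti-CD3 alone. Every array with CSA was lower than every array without it, and the fall of 2.93 as measured (SE 0.1, adjusted p = 1.19e-14) left 13.2% of the level. Cdc6, the ATPase that loads the helicase, had values of 6.2, 5.88, 6.68 and 5.64 with CSA, against 8.82, 8.82, 8.91 and 8.48 with anti-CD3 alone. It fell by 2.65 (SE 0.17, adjusted p = 1.16e-10) with no overlap of the groups. Cdt1, its partner in loading, fell by 1.43. Mcm3 fell by 2.3, Mcm4 by 1.98, Mcm5 by 1.65, Mcm2 by 1.47 and Mcm6 by 1.25, so that subunits of a complex built in equal numbers changed by amounts that spanned 1.67 log2 units. Of the origin recognition subunits, Orc1 fell by 1.96 and Orc6 by 1.3, whereas Orc2 fell by 0.45. Geminin, the inhibitor of relicensing, fell by 0.59.

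Of the 6 genes that activate the helicase, 5 fell in the conventional clone, with a median of -1.18 over the 6. Cdc45 had values of 6.31, 5.85, 5.76 and 5.99 in conventional cells with CSA, against 8.23, 8.11, 8.27 and 7.97 with anti-CD3 alone. The groups did not overlap, and the fall was 2.16 (SE 0.11, adjusted p = 6.27e-12). Mcm10, which helps to activate the helicase, fell by 2.24. Of the 4 GINS subunits, Gins1 fell by 1.51, Gins2 by 0.84 and Gins4 by 0.48. Gins3 had values of 7.73, 7.75, 7.64 and 7.78 with CSA, against 7.8, 7.83, 7.63 and 7.68 with anti-CD3 alone. These ranges overlap, and the change of -0.01 (95% interval -0.17 to 0.15, adjusted p = 0.952) was not called.

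The clamp and its loader fell by smaller amounts in the conventional clone, with a median of -0.91. Pcna, the sliding clamp, had values of 10.98, 11, 10.96 and 11 with CSA, against 11.49, 11.59, 11.57 and 11.56 with anti-CD3 alone. The groups were tight and separate, and the fall of 0.57 (adjusted p = 6.24e-07) left 67.5% of the level. Within the loader, Rfc4 fell by 1.71, Rfc3 by 1.12, Rfc5 by 0.98 and Rfc2 by 0.84, and Rfc1, the large subunit, by 0.51. The subunits of the single-strand binding protein moved in opposite directions. Rpa2 fell by 1.55. Rpa1 had values of 8.86, 9.06, 8.74 and 8.91 with CSA, against 8.65, 8.58, 8.59 and 8.63 with anti-CD3 alone, and rose by 0.28 (SE 0.07, adjusted p = 0.00488) with no overlap of the arrays.

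The polymerases fell, and the primase subunits parted. Pole, the catalytic subunit of the leading strand polymerase, had values of 4.44, 4.85, 4.54 and 4.76 in conventional cells with CSA, against 7.23, 7.38, 7.57 and 7.03 with anti-CD3 alone. Its fall of 2.66 as measured (SE 0.13, adjusted p = 3.52e-12) brought it to a mean of 4.65, the level of B cell and macrophage markers on these arrays, where differences are compressed and the change in RNA may be larger. In the same low range in conventional cells with CSA were Gins1 (4.71), Clspn (4.81), Gmnn (5.23), Orc1 (5.25) and Mcm10 (5.36), and the limit holds for every difference measured against that group for these 6 genes. It may also hold for genes up to 6.68, the mean of the fibroblast marker Col1a1 in that group. These were Pola1 (5.78), Chaf1b (5.92), Cdc45 (5.98), Cdc6 (6.1), Chaf1a (6.17), Uhrf1 (6.25), Tyms (6.58), Mcm7 (6.61) and Rfc4 (6.68). Pola1, the catalytic subunit of polymerase alpha, fell by 1.79, its partner Pola2 by 1.12, and Pold1, the catalytic subunit of the lagging strand polymerase, by 1.42. Prim1, the catalytic primase subunit, had values of 6.77, 7.25, 6.74 and 7 with CSA, against 8.88, 8.88, 8.85 and 8.94 with anti-CD3 alone, a fall of 1.95 (SE 0.1, adjusted p = 6.58e-12). Prim2, its regulatory partner, had values of 8.36, 8.9, 8.65 and 8.69 with CSA, against 7.6, 7.4, 7.61 and 7.65 with anti-CD3 alone. Every Prim2 array with CSA was higher than every array without it, and the rise of 1.08 (SE 0.1, adjusted p = 2.03e-08) was 2.12-fold. Prim2 was the sole member that rose by at least 2-fold in either clone with CSA, against 2.37% of all genes in the conventional clone and 1.23% in the unconventional clone.

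Fen1 and Lig1, which trim and join Okazaki fragments, fell by 0.57 and 0.64 in the conventional clone. In nucleotide supply, the ribonucleotide reductase subunits Rrm1 and Rrm2 fell by 1.62 and 1.37, and thymidylate synthase (Tyms) by 1.31. Thymidine kinase (Tk1) fell by 0.5 (adjusted p = 0.000919) on its brighter probe set and changed by -0.08 (adjusted p = 0.809 over probe sets) on its other probe set, so the probe sets disagree for this gene. Which of them measures the Tk1 gene was not settled, and Tk1 counts among the falls above by its brighter probe set only. The probe sets of Pcna gave -0.57 and -0.56.

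The genes that restore chromatin behind the fork had a median of -2.02 and held the largest fall of the list. Uhrf1, which recognises hemimethylated DNA and recruits the maintenance methyltransferase, had values of 6.28, 6.38, 6.27 and 6.07 in conventional cells with CSA, against 9.42, 9.63, 9.75 and 9.53 with anti-CD3 alone. The groups were more than 3 units apart at every array, and the fall of 3.33 as measured (SE 0.1, adjusted p = 1.93e-15) left 9.96% of the level and ranked 28 of 19938 genes by size of fall. The subunits of chromatin assembly factor 1 fell by 2.1 (Chaf1b) and 1.95 (Chaf1a). The methyltransferase itself, Dnmt1, had values of 8.74, 8.79, 8.62 and 8.63 with CSA, against 9.21, 9.24, 9.38 and 9.05 with anti-CD3 alone. It fell by 0.52 (adjusted p = 2.39e-05), leaving 69.5% of the level. Claspin (Clspn), the adaptor of the fork checkpoint, fell by 1.71 (SE 0.12, adjusted p = 3.43e-10).

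**Figure D2:**
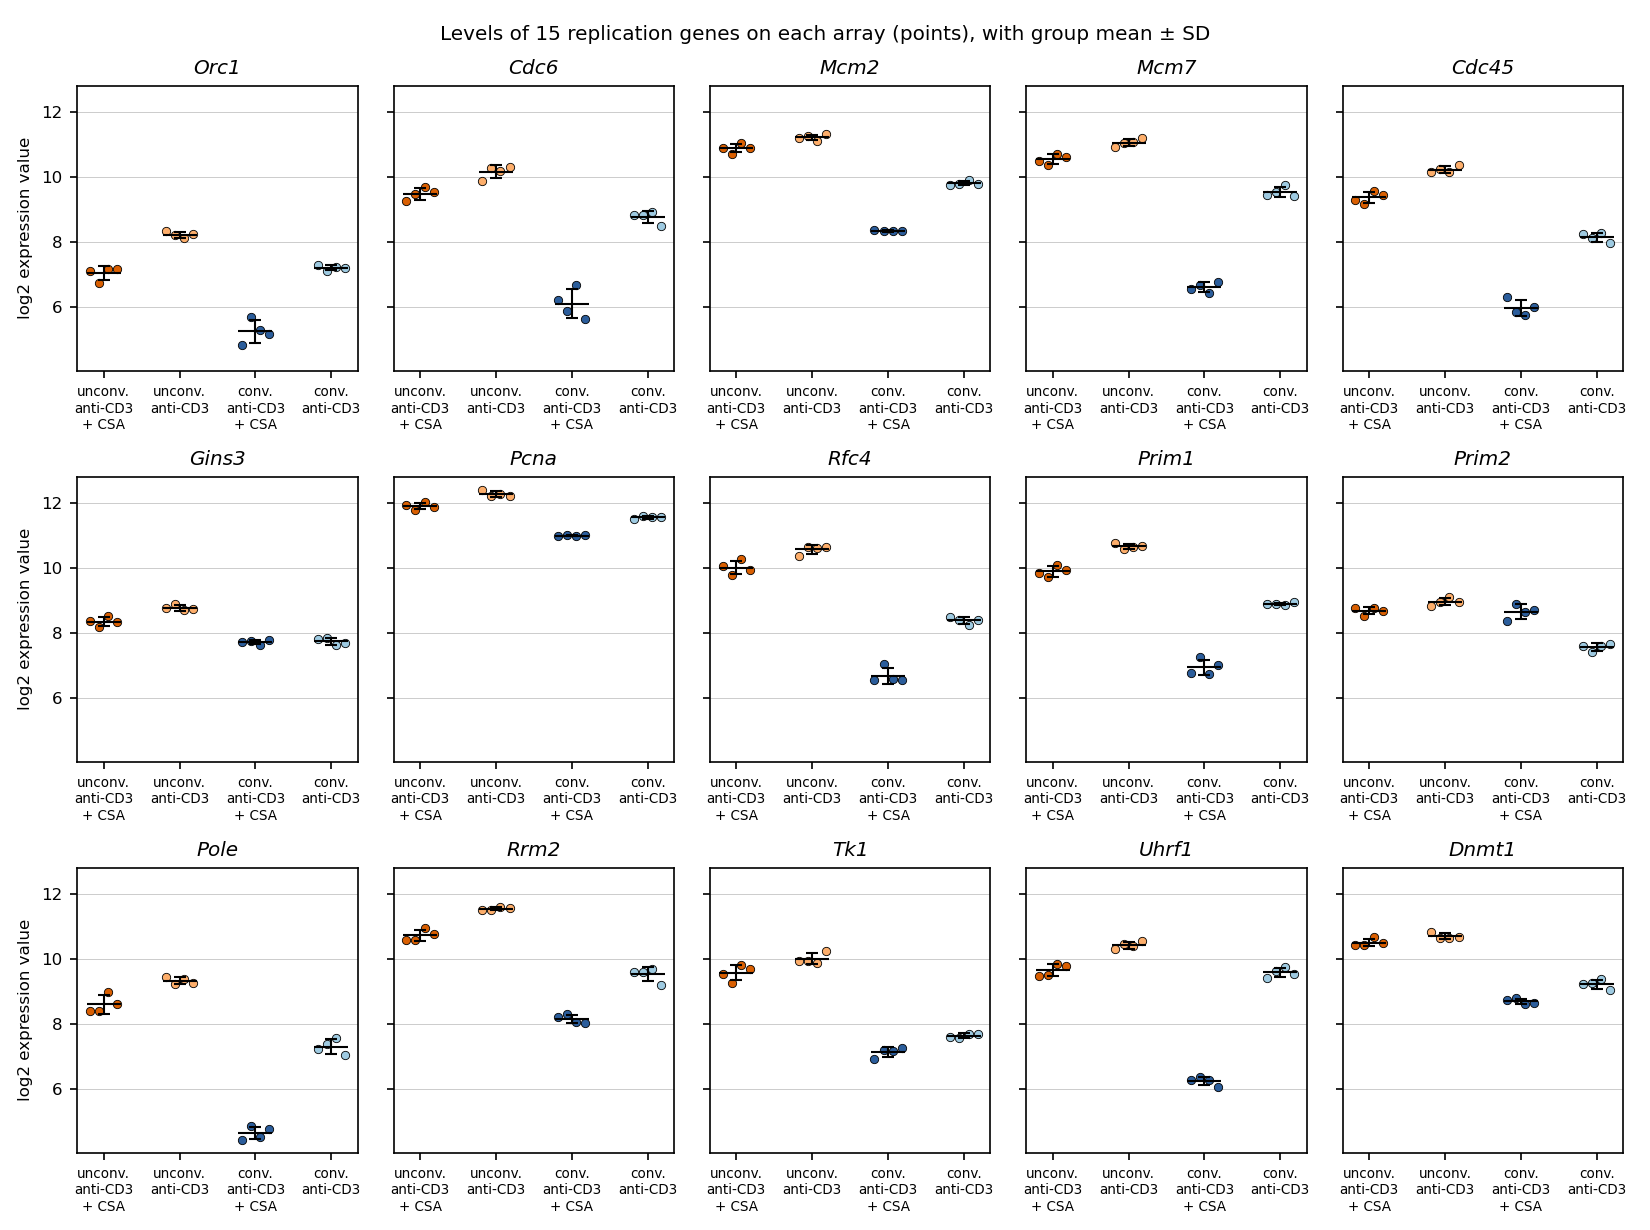
Log2 expression values of 15 replication genes, with a point per array and the group mean and SD (n = 4 arrays per group), in unconventional cells with CSA and with anti-CD3 alone and in conventional cells with CSA and with anti-CD3 alone. Uhrf1, Mcm7, Cdc6 and Pole drop with CSA in the conventional clone by 2.65 to 3.33, Prim2 rises there by 1.08, and Gins3 changes by -0.01.

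In the unconventional clone, CSA lowered the list too, by smaller amounts for most genes. Of the 43 genes, 40 fell and 0 rose at an adjusted p under 0.05 by limma. Of all genes, 24.9% were called, 12.3% as lower and 12.6% as higher. The count of rises is 0 at an unadjusted p under 0.05 too, since the sole positive change is that of Rpa1, whose 95% interval spans 0. By at least 2-fold, 2 of the 43 fell, Orc1 and Mcm10, against 1.07% of all genes. The median gene stood at 69.7% of its level with anti-CD3 alone, a log2 change of -0.52, and the middle of the list ran from -0.72 to -0.39 between its quartiles. For 38 of the 43 the arrays did not overlap, against 27.2% of all genes.

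Orc1 had values of 7.1, 6.73, 7.16 and 7.17 in unconventional cells with CSA, against 8.34, 8.2, 8.11 and 8.23 with anti-CD3 alone. All CSA arrays were lower, and the fall was 1.18 (SE 0.13, adjusted p = 1.11e-06). Mcm10 had values of 8.62, 8.55, 9.03 and 8.89 with CSA, against 9.88, 9.87, 9.85 and 9.85 with anti-CD3 alone, a fall of 1.09 (adjusted p = 3.62e-07). The other origin recognition subunits of the list, Orc6 and Orc2, fell by 0.81 and 0.68, and the helicase activators Cdc45, Gins1 and Gins2 by 0.85, 0.81 and 0.76. The helicase subunits were near uniform in this clone. Mcm5 and Mcm7 fell by 0.52, Mcm4 by 0.49, Mcm3 by 0.47, Mcm6 by 0.39 and Mcm2 by 0.33, a span of 0.19. Mcm7 had values of 10.48, 10.35, 10.7 and 10.6 with CSA, against 10.91, 11.03, 11.07 and 11.19 with anti-CD3 alone, with no overlap (SE 0.1, adjusted p = 0.000338). Cdc6 fell by 0.67, Gmnn by 0.55 and Cdt1 by 0.31. The Cdt1 call (adjusted p = 0.0322) was lost when replicate 1, 2 or 4 with CSA or replicate 2 or 4 with anti-CD3 alone was left out, at changes of -0.3 to -0.26 and adjusted p = 0.0757 to 0.117.

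The remaining roles fell by moderate amounts in the unconventional clone. The clamp and loader had a median of -0.39, with Pcna at -0.37 and Rfc4, at -0.56, the largest fall of the 6. Among the polymerases and primase the falls were 0.78 for Prim1, 0.73 for Pole, 0.67 for Pola1, 0.58 for Pold1, 0.49 for Pola2 and 0.29 for Prim2. The Prim2 fall (adjusted p = 0.0339) was likewise lost when replicate 2 or 4 with CSA or replicate 2, 3 or 4 with anti-CD3 alone was left out (-0.29 to -0.24, adjusted p = 0.0633 to 0.122). Rpa2 fell by 0.59, while Rpa1 changed by 0.07 (95% interval -0.08 to 0.22, adjusted p = 0.61) and was not called. Lig1 and Fen1 fell by 0.68 and 0.39, and the nucleotide genes by 0.82 (Rrm2), 0.81 (Tyms), 0.45 (Rrm1) and 0.43 (Tk1, -0.41 on its other probe set at adjusted p = 0.109 over probe sets). Uhrf1 had values of 9.48, 9.5, 9.85 and 9.79 with CSA, against 10.3, 10.44, 10.38 and 10.54 with anti-CD3 alone, and its fall of 0.75 (SE 0.1, adjusted p = 6.19e-06) left 59.3% of the level. Chaf1a fell by 0.72 and Chaf1b by 0.34, and Clspn by 0.69. Dnmt1 and Gins4 changed by -0.19 each (adjusted p = 0.0948 and 0.103) and were not called. Without replicate 3 of the unconventional cells with CSA they were called, at -0.25 and -0.24 (adjusted p = 0.0361 and 0.0482).

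**Figure D3:**
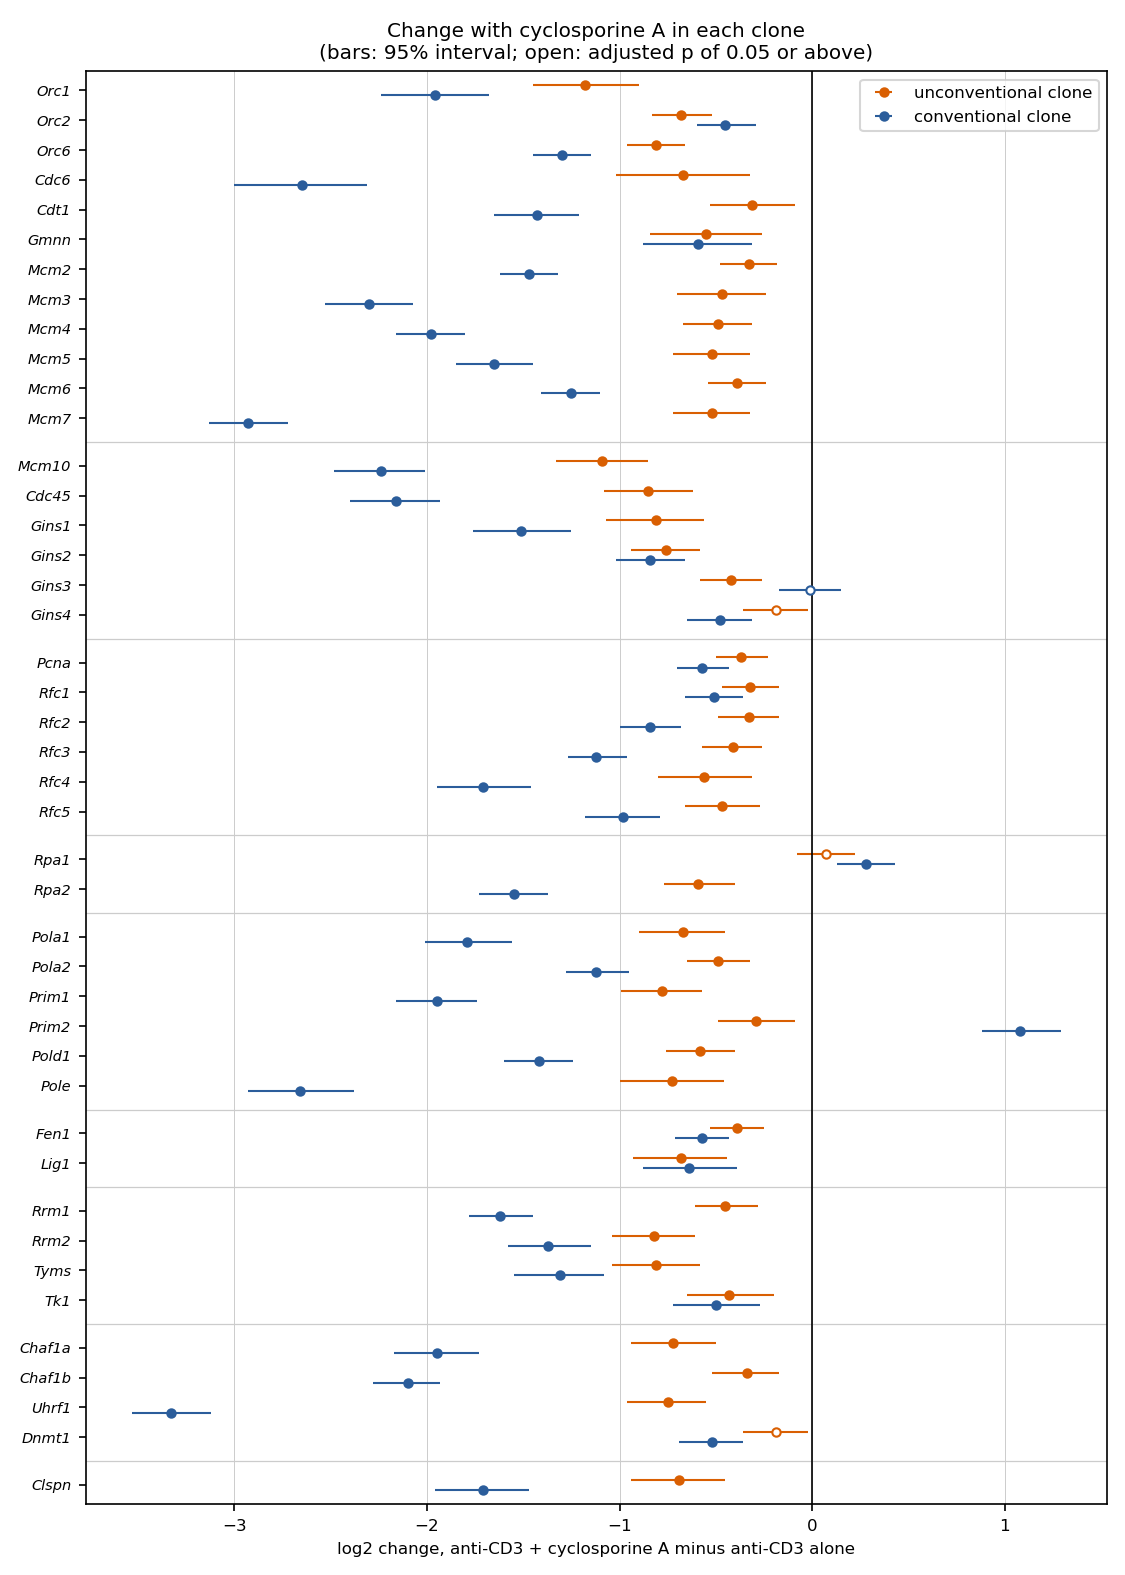
Log2 change with CSA of each of the 43 genes, CSA minus anti-CD3 alone, in the unconventional and the conventional clone, with 95% intervals, in blocks by role from licensing at the top to the fork checkpoint at the bottom. Open circles were not called. The unconventional values lie between -1.18 and 0.07 and the conventional ones between -3.33 and 1.08.

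The difference between the 2 drug effects was tested directly in the same fit. It was positive, a smaller fall or larger rise in the unconventional clone, for 30 of the 43 genes, against 8.51% of all genes, and negative for 2, against 7.78%, with 16.3% of all genes called in either direction. The median difference was 0.79 on the log2 scale, while the median over all genes was 0. All 30 belonged to the 38 genes that fell in both clones. For 18 members the difference was positive and at least 2-fold, against 1.66% of all genes. It was largest for Uhrf1 at 2.58 (95% interval 2.29 to 2.86, adjusted p = 1.45e-10), Mcm7 at 2.41 (2.12 to 2.69, adjusted p = 2.89e-10), Cdc6 at 1.98 (1.49 to 2.47, adjusted p = 3.95e-06) and, limited by its low level in conventional cells with CSA, Pole at 1.93 as measured (1.54 to 2.31, adjusted p = 2.8e-07).

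The negative differences were those of Prim2 and Gins3. Prim2 differed by -1.37 (95% interval -1.66 to -1.09, adjusted p = 4.74e-07), with a fall of 0.29 in the unconventional clone and a rise of 1.08 in the conventional clone. It was the 1 member with a negative difference of at least 2-fold, against 1.46% of all genes. Gins3 differed by -0.41 (95% interval -0.64 to -0.19, adjusted p = 0.01). In unconventional cells Gins3 had values of 8.35, 8.19, 8.51 and 8.32 with CSA, against 8.76, 8.88, 8.7 and 8.72 with anti-CD3 alone, a fall of 0.42 with no overlap.

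For 11 genes the difference was not called, and their intervals show what sizes remain possible. It was 0.05 for Gmnn (-0.36 to 0.45). Gmnn was low in conventional cells, at means of 5.23 with CSA and 5.83 with anti-CD3 alone, so its interval may not cover the difference in RNA. The difference was -0.04 for Lig1 (-0.39 to 0.3), 0.07 for Tk1 (-0.25 to 0.39, and -0.33 on its other probe set, so the interval does not cover the doubt between them) and 0.08 for Gins2 (-0.17 to 0.34). It was 0.18 for Fen1 (-0.01 to 0.37) and Rfc1 (-0.02 to 0.39), 0.2 for Pcna (0.01 to 0.39), -0.21 for Rpa1 (-0.43 to 0.01) and -0.23 for Orc2 (-0.45 to -0.01). Gins4 at 0.29 (0.05 to 0.53, adjusted p = 0.102) and Dnmt1 at 0.33 (0.1 to 0.57, adjusted p = 0.0519) lay closest to the threshold. Tyms, called at 0.51 (adjusted p = 0.0307), was not called when any 1 of 10 arrays was left out, at 0.43 to 0.5 (adjusted p = 0.0516 to 0.0742). These were replicates 3 and 4 of unconventional cells with CSA, 2, 3 and 4 of unconventional cells with anti-CD3 alone, 1, 3 and 4 of conventional cells with CSA, and 1 and 3 of conventional cells with anti-CD3 alone. The Dnmt1 difference was called, at 0.33 to 0.39, under 6 alternatives, among them leaving out replicate 1 of unconventional cells with anti-CD3 alone, replicate 2 of conventional cells with CSA or replicate 4 of conventional cells with anti-CD3 alone (adjusted p = 0.0198 to 0.0408 over the 6). Across the 43 genes the 2 effects correlated at r = 0.54 and rho = 0.54, against r = 0.63 across all genes. The effects share no arrays, genes are not independent replicates, and the value is a description.

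**Figure D4:**
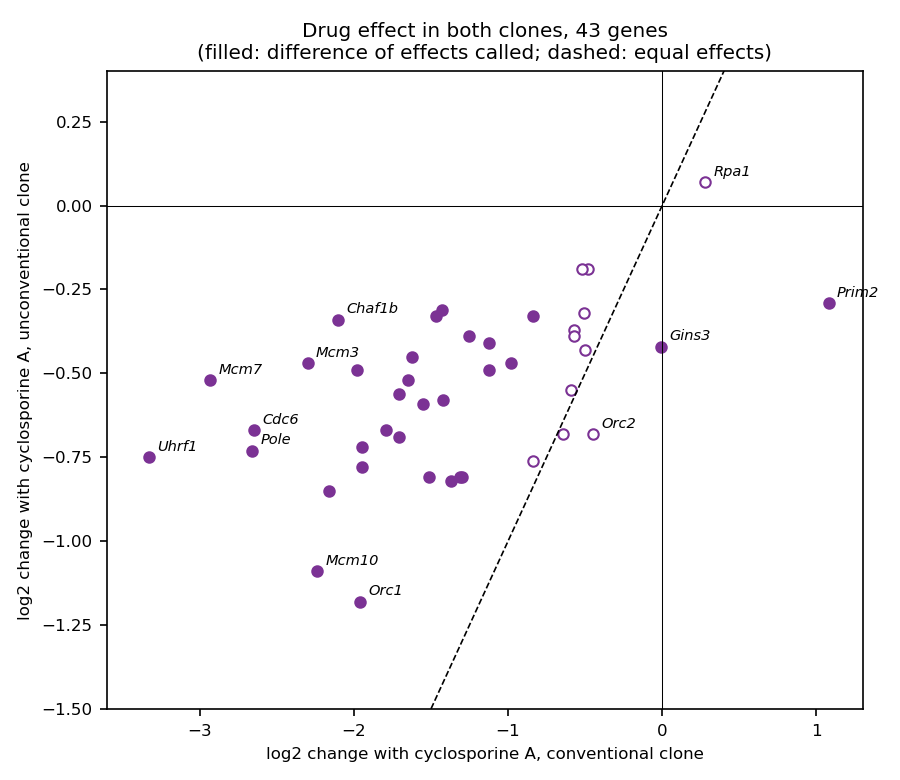
Log2 change with CSA in the unconventional clone (vertical axis) against that in the conventional clone (horizontal axis), with a point per gene and filled points where the difference of effects was called. The axes differ in scale, and the dashed line marks equal effects. Uhrf1, at -0.75 and -3.33, and Mcm7, at -0.52 and -2.93, lie far above that line, and Prim2, at -0.29 and 1.08, lies below it.

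With anti-CD3 alone, every replication gene was higher in the unconventional clone than in the conventional clone. All 43 were called higher, against 20.3% of all genes, and 32 of them by at least 2-fold, against 4.41%. No member was lower at any p, against 21.7% of all genes called lower, 3.33% by at least 2-fold, and 42% called in all. The median difference was 1.4, which is 2.64-fold, and the arrays of the clones did not overlap for any of the 43, against 38.6% of all genes without overlap. After centring arrays on their medians the split over all genes was 4418 higher and 2952 lower, against 4048 higher and 4328 lower in the values as deposited, and the 43 were again all higher. Tk1 had values of 9.92, 9.93, 9.88 and 10.25 in unconventional cells, against 7.6, 7.56, 7.69 and 7.7 in conventional cells, a difference of 2.36 (adjusted p = 5.17e-13), and of 2.13 on its other probe set. Mcm10 differed by 2.26, Gins1 by 2.19, Rfc4 by 2.18, Clspn by 2.12, Cdc45 by 2.08 and both Pole and Rrm2 by 2.02. The smallest differences were 0.26 for Orc2 (adjusted p = 0.00805), 0.64 for Mcm3, 0.7 for Fen1 and 0.71 for Pcna. Uhrf1, the gene with the largest fall in the conventional clone, differed by 0.83 (adjusted p = 6.09e-07).

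With CSA the clones stood further apart for most of the list. Of the 43 genes, 41 were higher in the unconventional clone, against 21.3% of all genes, and 37 by at least 2-fold, against 5.57%. No member had a negative difference, against 23% of all genes called lower, 4.27% by at least 2-fold, and 44.2% called in all. The median difference was 2.24, which is 4.71-fold, and 41 of 43 had no overlap, against 42.2% of all genes. Pole had values of 8.39, 8.38, 8.99 and 8.62 in unconventional cells, against 4.44, 4.85, 4.54 and 4.76 in conventional cells, a difference of 3.95 as measured, or 15.4-fold, which its low level in conventional cells may understate. Mcm7 differed by 3.92, or 15.2-fold, Mcm10 by 3.42, Uhrf1 by 3.41, Cdc45 by 3.39, Cdc6 by 3.37, Chaf1b by 3.36 and Rfc4 by 3.33. Levels in conventional cells with CSA were low for these genes too and may likewise understate the differences. Prim2 had values of 8.76, 8.53, 8.75 and 8.67 in unconventional cells, against 8.36, 8.9, 8.65 and 8.69 in conventional cells, and the ranges overlapped at a difference of 0.03 (95% interval -0.18 to 0.23, adjusted p = 0.847). Orc2 likewise differed by 0.03 (95% interval -0.13 to 0.19, adjusted p = 0.762). These comparisons share arrays with the drug effects above and are not independent of them.

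**Figure D5:**
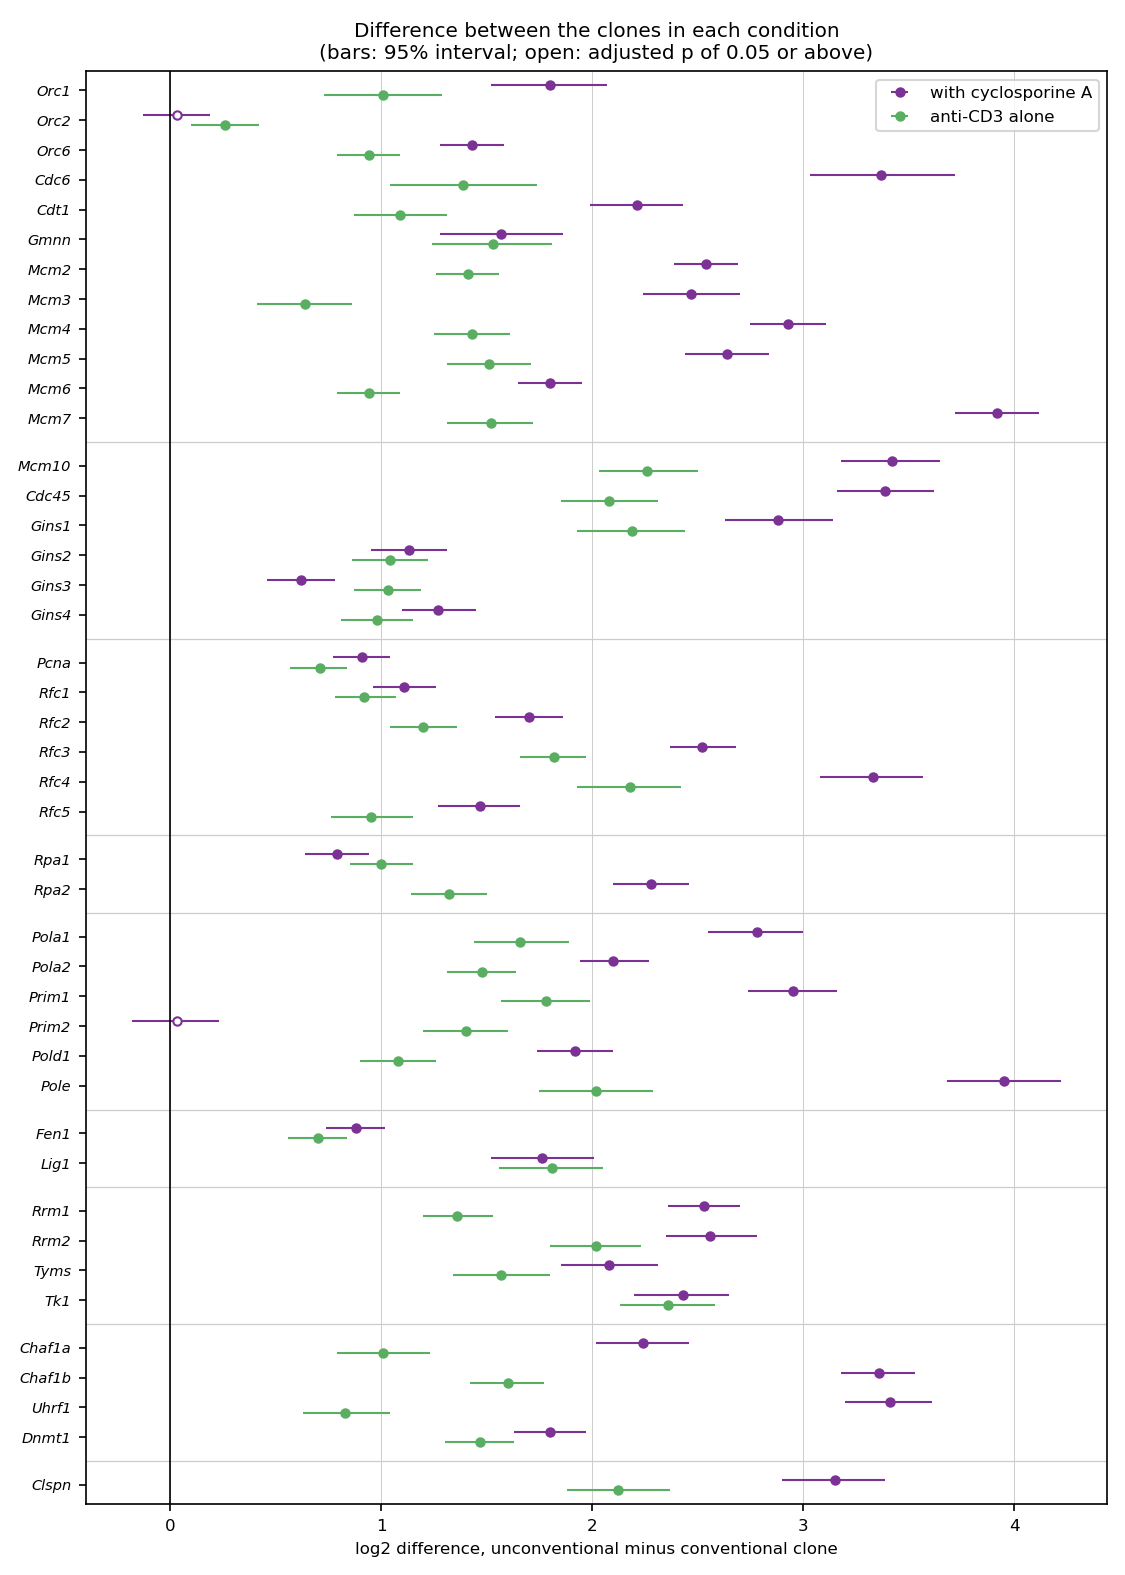
Log2 difference between the clones, unconventional minus conventional, for each of the 43 genes with CSA and with anti-CD3 alone, with 95% intervals, in blocks by role. All values with anti-CD3 alone lie between 0.26 and 2.36, and with CSA the open circles of Orc2 and Prim2 lie at 0.03.

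Levels in unconventional cells with CSA were set against levels in conventional cells with anti-CD3 alone as a description. The mean was higher in unconventional cells with CSA for 41 of the 43 genes, the exceptions being Orc1 (by -0.17) and Orc2 (by -0.41). For 37 of the 43, all 4 unconventional arrays with CSA lay above all 4 conventional arrays with anti-CD3 alone, against 21.5% of all genes. Besides Orc1 and Orc2, the genes without that separation were Orc6, Mcm3, Chaf1a and Uhrf1. Uhrf1 had values of 9.48, 9.5, 9.85 and 9.79 in unconventional cells with CSA and of 9.42, 9.63, 9.75 and 9.53 in conventional cells with anti-CD3 alone, and these ranges overlap.

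Of 58 further genes of DNA replication and its checkpoint, 55 were measured. In the unconventional clone 3 rose and 37 fell with CSA, with a median of -0.43, against 12.6% and 12.3% of all genes. In the conventional clone 3 rose and 44 fell, with a median of -0.81, against 15.9% and 15.5% of all genes, and 18 fell by at least 2-fold, against 2.69%. The difference of effects was positive for 26 and negative for 4, with a median of 0.32, against 8.51% and 7.78% of all genes. Exo1, a nuclease of replication and repair, had values of 4.81, 4.29, 4.4 and 4.18 in conventional cells with CSA, against 7.62, 7.56, 7.52 and 7.27 with anti-CD3 alone, a fall of 3.07 as measured (adjusted p = 5.66e-14), which ended at a background-like mean of 4.42 and may be larger in RNA. In the unconventional clone it fell by 0.89 (adjusted p = 5.53e-06). The histone chaperone Asf1b fell by 2.48, the folate enzyme Shmt1 by 2.41 and the topoisomerase Top2a by 2.28 in the conventional clone. Ctps2, a CTP synthase, rose in both clones, by 1.03 in the unconventional clone and by 1.36 in the conventional clone, and Pold4, the small subunit of the lagging strand polymerase, rose by 0.82 in the unconventional clone and by 1.11 in the conventional clone. Fbxo5, an inhibitor of the anaphase-promoting complex, fell by 1.14 in the unconventional clone, the largest change of these genes there. Between the clones, with CSA 48 were higher and 3 lower in unconventional cells, with a median of 1.41, against 21.3% and 23% of all genes. With anti-CD3 alone 48 were higher and 1 lower, with a median of 0.96, against 20.3% and 21.7% of all genes. Of the origin recognition subunits in this list, Orc4 fell by 0.3 in each clone, Orc5 fell by 0.42 in the unconventional clone and changed by -0.08 (adjusted p = 0.595) in the conventional clone, and Orc3 was called in neither.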

How the data were processed

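RNA of 16 samples was measured on Affymetrix whole-transcript arrays. The authors deposited log2 expression values per probe set, and GCOS, Partek 6.2 and RMA were used per the submitters' processing notes, which give no role or order. Their range, 2.08 to 14.55, is the basis for reading them as log2. RMA gives all arrays a like distribution, so a shift of most transcripts together would not be seen. The authors' genome build is not given in the sources used here.

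The platform annotation pairs 21789 of 28853 probe sets with 1 gene symbol, 1621 with several and 5443 with none, which gave 19938 genes. A model with 1 mean per group was fitted with limma 3.58.1 (lmFit, eBayes; R 4.3.3) to all 16 arrays, with 12 residual degrees of freedom. Two-sided p-values were adjusted by Benjamini-Hochberg across the 19938 genes, and a gene was called under 0.05. The 95% intervals are unadjusted. The fit was tried on simulated data for the CSA effect in the conventional clone only, with independent noise and far fewer changed genes than were called here. The other comparisons and the promoter search were not simulated. Named genes were all members and, of the other replication genes, some of those with the 4 largest called changes in a contrast. Chek1, Hells, Dscc1 and Atad5 also met that rule and are not described above. Ctps2 and Exo1 values in both clones and those of Pold4, Orc3, Orc4 and Orc5 were added after their values were seen. The members, lists and tests were chosen with earlier results of these data known. Precision is limited by the number of arrays. Alternatives were a filter on dim genes, 3 normalizations, the mean of probe sets, another moderation, only the groups compared, the replicate number as a block, and leaving out each array.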

Additional observations from a re-analysis of the deposited data

Results flagged for a closer look

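Within groups, 9 of 172 sets of 4 arrays held 1 array far from the other 3, with a gap above Dixon's critical value; chance gives about 1 in 20 sets. In unconventional cells with CSA, Orc1 was 6.73 on the second array, against 7.1 to 7.17 on the others, and Cdt1 was 9.48 on the third, against 9.25 to 9.28. In unconventional cells with anti-CD3 alone, Mcm3 was 11.19 on the first array (others 11.76 to 11.84) and Rfc4 was 10.35 on it (others 10.62 to 10.65). In the same group Gins2 was 8.62 on the third array (others 8.81 to 8.83), Rfc3 was 11.05 on it (others all 11.03), and Tk1 was 10.25 on the fourth (others 9.88 to 9.93). In conventional cells with CSA, Mcm2 was 8.37 on the first array (others 8.32 to 8.33) and Rfc4 was 7.05 on the second (others 6.54 to 6.58).

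The effect of CSA differed between the clones for 32 members by the test of the difference, given here as unconventional minus conventional on the log2 scale. Among licensing genes it was 2.41 for Mcm7, 1.98 for Cdc6, 1.83 for Mcm3, 1.49 for Mcm4, 1.14 for Mcm2, 1.13 for Mcm5, 1.12 for Cdt1, 0.86 for Mcm6, 0.79 for Orc1 and 0.49 for Orc6. Among helicase activators it was 1.31 for Cdc45, 1.15 for Mcm10, 0.69 for Gins1 and -0.41 for Gins3. In the clamp loader it was 1.15 for Rfc4, 0.71 for Rfc3, 0.52 for Rfc5 and 0.51 for Rfc2, and for the single-strand binding subunit Rpa2 it was 0.96. Among polymerases and primase it was 1.93 for Pole, 1.17 for Prim1, 1.12 for Pola1, 0.84 for Pold1, 0.63 for Pola2 and -1.37 for Prim2. In nucleotide supply it was 1.17 for Rrm1, 0.55 for Rrm2 and 0.51 for Tyms. Among chromatin genes it was 2.58 for Uhrf1, 1.76 for Chaf1b and 1.23 for Chaf1a, and for the checkpoint adaptor Clspn it was 1.02.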

How the results depend on the processing

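Each comparison was recomputed under 24 settings, 16 of which left out an array. The exception was the difference of effects, which needs all 4 groups and was not refitted with only the groups compared. All 357 alternative values of the 15 counts and medians kept their direction and stayed within the limits set for them. For a median the limit was a shift below 0.125, the pooled SD of the member median between arrays of a group. For a count it was a ratio to the main count, and a count of 0 had to stay 0. The ratio is loose for the large counts, so the ranges below say more. Of 5117 alternative values of single genes, 5065 kept direction and call, 22 lost the call, 11 gained it and 19 changed sign while uncalled. Where the array left out belonged to neither group compared, the change itself could not move and only its p-value could. Such settings are part of these totals and are a weak check. Leaving out an array, the number of genes that fell with CSA was 38 to 42 in the unconventional clone (median -0.58 to -0.46) and 40 in the conventional clone (median -1.47 to -1.35). The difference was positive for 29 to 31 genes (median 0.7 to 0.87), and 43 genes were higher in the unconventional clone with anti-CD3 alone and 41 with CSA in each case. Single calls lost were Tk1 in the conventional clone with the mean of its probe sets (-0.29, adjusted p = 0.102) and Tyms in the difference after median centring (0.48, adjusted p = 0.0706); with the filter on dim genes Dnmt1 (adjusted p = 0.0425) and Gins4 (adjusted p = 0.0468) were called in the unconventional clone, and the Gins4 difference too (0.29, adjusted p = 0.0467). With the replicate block the counts and medians were as without it (0 higher and 40 lower in the unconventional clone, 2 and 40 in the conventional clone, medians -0.52 and -1.42). Same-numbered arrays of different groups correlated at -0.1368 to 0.2844 in their deviations, with a median of 0.0357 and 3 of 24 pairs over 0.1. Pairs with different numbers had a median of -0.0136, with 7 of 72 over 0.1. For 9 of the 16 arrays the mean correlation with arrays of other groups was highest at their own number. Whether the numbers pair the samples was not settled by these values. All 43 genes passed the filter at a mean of 6. Low levels, such as Pole in conventional cells with CSA, limit how large a fall can be measured.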
